A study of Mus musculus with 7 samples.

Results

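Creatine kinases and the enzymes that surround them were followed in the RNA of muscle stem cells (MuSCs) from WT mice and from mice homozygous for Jag2sm. The members were 8 of the 56748 genes in the count files, chosen by name: the creatine kinases Ckm, Ckb, Ckmt1 and Ckmt2, the creatine synthesis enzyme Gamt, the creatine transporter Slc6a8, the adenylate kinase Ak1 and the AMP deaminase Ampd1. All 8 were found by their Ensembl identifiers. Jag2 encodes a ligand of the NOTCH receptors, and Jag2sm is a naturally occurring missense allele of it, which the genotype field of the labels writes as Jag2-/-. There were 3 WT and 4 Jag2sm libraries, each from hindlimb MuSCs of adult mice that had been depleted of CD31, CD45 and Sca1 positive cells, selected for integrin α7 and cultured in growth medium. The ages and sexes behind the single libraries are not given in the sources used here, and neither is whether each library came from its own animal, so p-values measure only the spread between these libraries. The allele is present in every cell of the mouse, so that effects arising within the MuSCs and effects of their former surroundings cannot be told apart.

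Muscle uses phosphocreatine as a store of high-energy phosphate. Creatine kinase moves a phosphate between ATP and creatine in both directions, with cytosolic forms near the sites of use and mitochondrial forms near the sites of ATP production. Adenylate kinase turns a pair of ADP molecules into ATP and AMP, and AMP deaminase removes the AMP as IMP. During the differentiation of muscle the brain-type cytosolic enzyme, from Ckb, gives way to the muscle-type enzyme, from Ckm, and the Ckm enhancer with its E-boxes, the binding sites of MYOD, is a classical reporter of the differentiation programme.

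The number of reads assigned to genes ran from 187834 to 1657016 in WT and from 671660 to 1937581 in Jag2sm. WT 1 stood apart, with the fewest reads and with 45.1% of its aligned reads on no annotated gene, against 20.8% to 25.7% in the other 6 libraries. Between 2.44% and 3.24% of reads were not aligned in the WT libraries and in Jag2sm 3, but 50.8%, 46.7% and 46.0% were not aligned in Jag2sm 1, 2 and 4, and the part of this in the results was not tested. Levels are given as CPM, the reads of a gene relative to all gene reads of its library after TMM scaling, and 3 counts, the limit that a count of 0 allows, were worth 17.3 CPM in WT 1 and 1.48 to 4.24 CPM in the other libraries. Intervals and limits cover counting error only. In edgeR's quasi-likelihood test 594 of 9489 tested genes (6.26%) passed an adjusted p of 0.05, of which 459 (4.84%) were lower and 135 higher in Jag2sm. With libraries scaled by their size alone the split was 384 lower and 241 higher, and the median log2 fold change of all tested genes moved from 0.05 to 0.21. Jag2 itself had 80.7, 113.8 and 115.7 CPM in WT 1 to 3 and 42.4, 78.8, 71.9 and 77.4 CPM in Jag2sm 1 to 4. All Jag2sm libraries were below all WT libraries for Jag2, with a log2 fold change of -0.64 ± 0.24 (SE) and an adjusted p of 0.166 in edgeR. A missense allele need not change this level, so it does not check the labels.

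The stretch before the transcription start is shown for the 2 cytosolic creatine kinases and for the mitochondrial Ckmt2, because the cytosolic pair marks the switch described above and Ckmt2 was the member with the largest measured difference. The sequences are the 250 bases upstream of the RefSeq start in build GRCm38.p6, which is an older build than the one of the gene positions given further on. Capitals mark CAGCTG and CACCTG, searched on both strands, which are 2 forms of the E-box CANNTG.
Ckm, chr7:19410844-19411093, plus strand: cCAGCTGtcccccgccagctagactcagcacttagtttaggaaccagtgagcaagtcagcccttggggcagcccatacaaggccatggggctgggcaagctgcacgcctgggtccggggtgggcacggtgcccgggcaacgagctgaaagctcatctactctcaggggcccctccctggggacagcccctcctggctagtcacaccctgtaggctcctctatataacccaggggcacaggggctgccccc
Ckb, chr12:111672339-111672588, minus strand: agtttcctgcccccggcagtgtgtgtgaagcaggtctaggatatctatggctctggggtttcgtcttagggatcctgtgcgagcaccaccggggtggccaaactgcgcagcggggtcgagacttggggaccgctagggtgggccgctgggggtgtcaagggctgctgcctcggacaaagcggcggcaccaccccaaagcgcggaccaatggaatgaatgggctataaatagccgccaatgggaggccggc
Ckmt2, chr13:91876886-91877135, minus strand: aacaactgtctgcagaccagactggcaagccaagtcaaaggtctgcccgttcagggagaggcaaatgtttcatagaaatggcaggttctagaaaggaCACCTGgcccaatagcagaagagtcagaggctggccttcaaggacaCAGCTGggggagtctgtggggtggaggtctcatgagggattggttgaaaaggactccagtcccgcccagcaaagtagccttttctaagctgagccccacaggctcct
The Ckm stretch held 1 CAGCTG, whose first base lay at -249 from the start. The Ckmt2 stretch held 4 CANNTG, of which 1 was CAGCTG at -107 and 1 was CACCTG at -153. The Ckb stretch held no CANNTG. Among 32851 RefSeq promoters, 66.2% held a CANNTG, 13.0% a CAGCTG and 17.2% a CACCTG in the same window, so a match is common and is given as a description of these bases only. The table matched 6 of the 8 members. Slc6a8 and Ampd1 were not among them.

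Of the 8 members, 5 had enough counts to be tested (Ckb, Ckmt2, Gamt, Slc6a8 and Ak1) and 1 of these, Ckmt2, fell in Jag2sm, while none rose. Among all 9489 tested genes 4.84% fell. Ckm, Ckmt1 and Ampd1 had too few counts for the test and are described by their counts. Among the 5 tested members, Ckmt2 and Ak1 had all Jag2sm libraries below all WT libraries, an order found for 1158 of all tested genes (12.2%).

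**Figure D1:**
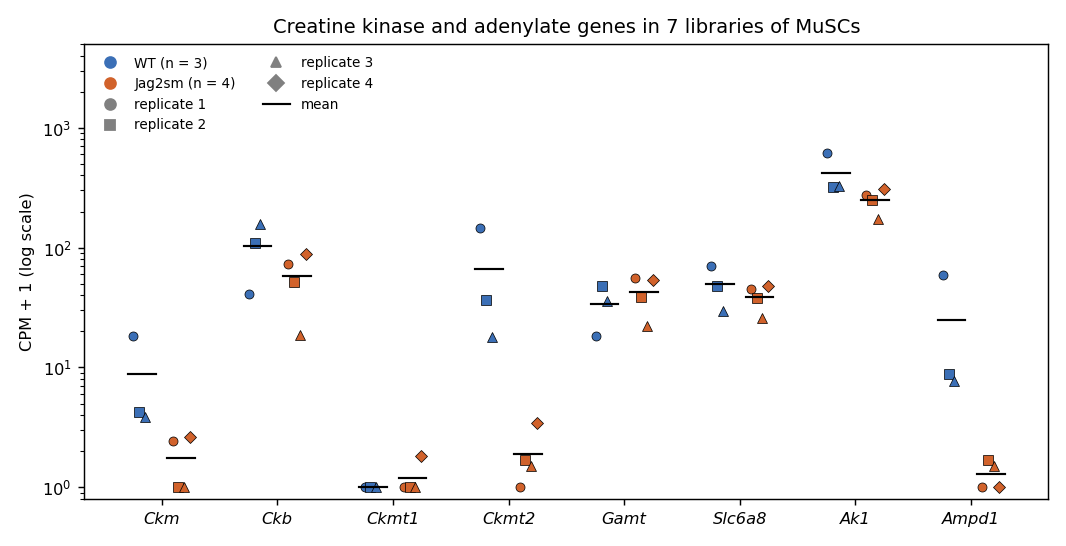
Level of each creatine kinase and adenylate gene in the 7 libraries, as CPM plus 1 on a log axis. Blue points are the 3 WT libraries, orange points the 4 Jag2sm libraries, the marker shape gives the replicate and the black line the group mean. The WT points of Ckm, Ckmt2 and Ampd1 lie above all Jag2sm points, while the points of Ckb, Gamt and Slc6a8 overlap.

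Ckmt2 encodes the sarcomeric mitochondrial creatine kinase, which sits between the mitochondrial membranes of heart and skeletal muscle. The gene lies on the minus strand of chr13:92001503-92025608 (GRCm39). It had 25, 55 and 18 counts in WT 1 to 3 and 0, 1, 1 and 3 counts in Jag2sm 1 to 4. On the CPM scale this was 144.1, 35.6 and 17.1 in WT and 0, 0.691, 0.493 and 2.45 in Jag2sm, or 65.6 ± 68.6 (SD, n = 3) against 0.907 ± 1.07 (SD, n = 4). Every WT library was above every Jag2sm library. The part of the unaligned reads in this difference was not tested. Among the WT libraries WT 1 was the highest. The fitted log2 fold change was -5.57 ± 0.88 (SE), with an adjusted p of 0.00652 in edgeR. From the pooled counts, 98 in WT and 5 in Jag2sm, the log2 ratio was -5.26 (95% interval -6.91 to -3.98). The difference had the same sign in the 3 batches that hold both genotypes, at -6.41, -3.96 and -3.09 on the log2 CPM scale with a prior count of 2, which is used for all batch values and draws those of low genes towards 0. Without WT 1 it was -4.73 with an adjusted p of 0.00505, without WT 3 it was -6.21 and without Jag2sm 4 it was -6.37. Ckmt2 was called in all 15 alternatives that tested it, but it did not reach the test when 10 counts were required in every library or when libraries were thinned to the depth of WT 1. The annotation places 1700119I11Rik on the opposite strand over part of the gene, and whether reads were counted by strand is not given in the sources used here.

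Ckm encodes the muscle-type cytosolic creatine kinase, one of the most abundant enzymes of the mature fibre. The gene lies on the plus strand of chr7:19138701-19157965 (GRCm39). It was near the limit of detection in both groups, with 3, 5 and 3 counts in WT 1 to 3 and 1, 0, 0 and 2 counts in Jag2sm 1 to 4. These were 17.3, 3.23 and 2.85 CPM in WT and 1.41, 0, 0 and 1.63 CPM in Jag2sm. Each WT library was above each Jag2sm library, and no library held more than 5 counts. The pooled counts of 11 and 3 gave a log2 ratio of -2.84 with a 95% interval of -5.32 to -0.92. The exact permutation test on the log2 CPM of Ckm gave p = 0.0286, the smallest value that 35 splits of 7 libraries allow. Without a filter on low counts edgeR's adjusted p was 0.0982, so Ckm was not called. A930016O22Rik overlaps Ckm on the opposite strand.

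Ckb encodes the brain-type cytosolic creatine kinase, the form of proliferating myoblasts. The gene lies on the minus strand of chr12:111635789-111639008 (GRCm39). It had 40.4, 107.9 and 157.4 CPM in WT 1 to 3 and 72.1, 51.1, 17.7 and 88.0 CPM in Jag2sm 1 to 4. The groups overlapped, since WT 1, which held 7 counts of Ckb, was below 3 of the Jag2sm libraries. The means were 102 ± 58.8 CPM (SD, n = 3) and 57.3 ± 30.4 CPM (SD, n = 4), and the log2 fold change of -0.996 ± 0.483 (SE) had an adjusted p of 0.289 in edgeR. The batches did not share a sign, at 0.81, -1.05 and -3.03 on the log2 scale. Without WT 1 the log2 fold change of Ckb was -1.26, with an adjusted p of 0.174 in edgeR. Ckb was called in 1 of 16 alternatives, the one without a filter on low counts (adjusted p of 0.00793, in a fit that called 3.1% of its 25189 genes lower). Trmt61a lies over Ckb on the opposite strand.

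Ckmt1, the gene of the ubiquitous mitochondrial creatine kinase of brain and other tissues, was all but absent. It lies on the plus strand of chr2:121188195-121195706 (GRCm39). No count fell on it in WT, which allows up to 1.08 CPM over the pooled WT libraries, and the Jag2sm libraries held 1 count, in Jag2sm 4. Of the 4 creatine kinases, Ckb thus had the highest mean level per kilobase of coding sequence in both groups, at 89.2 CPM in WT and 50.1 CPM in Jag2sm. Ckmt2 followed in WT with 52.2 CPM per coding kilobase and Ckm with 6.82, while in Jag2sm these were 0.722 and 0.666. WT 1 carried much of this, for without it the WT means per coding kilobase were 116 CPM for Ckb, 20.9 for Ckmt2 and 2.66 for Ckm. In WT the libraries of Ckb and Ckmt2 overlapped, as did those of Ckmt2 and Ckm, in both cases through WT 1. In Jag2sm those of Ckmt2 and Ckm overlapped, while all 4 libraries of Ckb were above them. Without division by length the means of Ckb, Ckmt2 and Ckm were 102, 65.6 and 7.79 CPM in WT. In Jag2sm they were 57.3, 0.907 and 0.761 CPM, in the same order. Whether counts of these long reads grow with coding length was not tested.

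The share of Ckm in the sum of Ckm and Ckb counts addresses how far the cytosolic enzyme had moved from the brain type to the muscle type, and it needs no scaling between libraries. The coding sequences of the 2 genes have the same length, 1143 bases. Ckm took 3 of 10 counts in WT 1, or 30.0% (95% exact binomial interval 6.67% to 65.2%). It took 5 of 172 counts (2.91%, interval 0.950% to 6.65%) in WT 2 and 3 of 169 counts (1.78%, interval 0.368% to 5.10%) in WT 3. In all 3 WT libraries Ckb thus held the larger share, and the interval of WT 1 lay just above that of WT 2. In Jag2sm the share was 1 of 52 counts (1.92%, interval 0.0487% to 10.3%) in replicate 1 and 2 of 110 counts (1.82%, interval 0.221% to 6.41%) in replicate 4. Replicates 2 and 3 had no Ckm among 74 and 36 counts, which allows a share of up to 4.05% and 8.33% by the limit of 3 counts, with upper bounds of 4.86% and 9.74% by the exact binomial interval.

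The shares of WT 3 and of Jag2sm 1 and 4 were alike, so the groups overlapped. The means were 11.6% ± 16.0 (SD, n = 3) in WT and 0.935% ± 1.08 (SD, n = 4) in Jag2sm, a difference of -10.6 percentage points with p = 0.171 in an exact 2-sided permutation test. WT 1 carried this difference: without it, the difference was -1.41 points (exact permutation p = 0.400). The log2 ratio of Ckm to Ckb, with 0.5 added to each count, differed by -2.12 (exact permutation p = 0.171), and by -0.74 without WT 1. Within the batches the log2 ratio differed by -4.002, -2.29 and -0.62. Thinned to the depth of WT 1 it differed by -0.60 (exact permutation p = 0.686), with 4 Ckm counts left in all. In the permutation tests of the share and of the ratio the smaller tail was doubled. With so few libraries such a p cannot fall under the threshold used for genes, so these tests cannot decide on a difference. Ckm rested on 14 counts in the whole series.

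**Figure D2:**
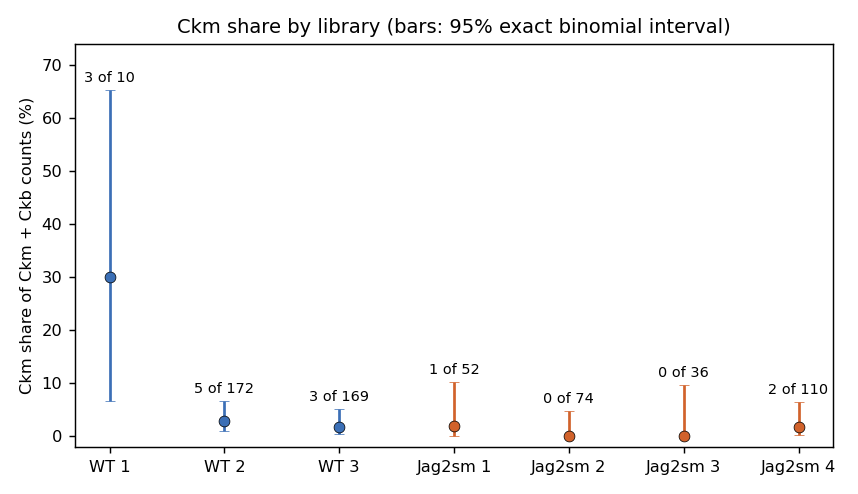
Share of Ckm in the counts of Ckm plus Ckb, in percent, for each library. Points are the shares, bars their 95% exact binomial intervals, and the numbers above give the Ckm counts of the total. WT 1 is at 30.0% on 10 counts and the other 6 libraries lie between 0% and 2.91%.

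Creatine enters the cell through a transporter or is made from arginine and glycine in a reaction pair. Gatm carries out the first step, to guanidinoacetate, and Gamt methylates this to creatine. Gatm, from the wider list of pathway genes, fell in Jag2sm. It had 109.5, 134.4 and 203 CPM in WT 1 to 3 and 55.1, 43.5, 25.1 and 66.0 CPM in Jag2sm 1 to 4. All Jag2sm libraries were below all WT libraries, with a log2 fold change of -1.72 ± 0.32 (SE) and an adjusted p of 0.0124 in edgeR. The call was lost without WT 3 (adjusted p of 0.0643) and without Jag2sm 2 (adjusted p of 0.0524). It stood with libraries thinned to the depth of WT 1, at -1.40 with an adjusted p of 0.0280. The gene lies on the minus strand of chr2:122424948-122441799 (GRCm39), with no other annotated gene over it.

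Gamt, on the minus strand of chr10:80089960-80096860 (GRCm39), had 17.3, 46.5 and 35.1 CPM in WT 1 to 3 and 55.1, 38.0, 21.2 and 52.2 CPM in Jag2sm 1 to 4. The WT 1 value came from 3 counts, at the limit of that library. The groups overlapped over most of their range, and the log2 fold change of 0.12 ± 0.37 (SE) had an adjusted p of 0.908 in edgeR. Its sign depended on the fit, being -0.12 with the batch as a term and -0.04 without WT 1. Gamt shares its place with Ndufs7 on the opposite strand.

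Slc6a8, which brings creatine into the cell, lies on the plus strand of chrX:72716728-72726108 (GRCm39). It had 69.2, 47.2 and 28.5 CPM in WT 1 to 3 and 43.8, 36.6, 24.6 and 46.5 CPM in Jag2sm 1 to 4. The groups overlapped, and the log2 fold change was -0.22 ± 0.33 (SE) with an adjusted p of 0.766 in edgeR. Neither Gamt nor Slc6a8 was called in any alternative that tested it.

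Ak1 encodes the cytosolic adenylate kinase that prevails in skeletal muscle. It was the member with the highest level per kilobase of coding sequence, at a mean of 720 CPM in WT and 430 CPM in Jag2sm. The gene lies on the plus strand of chr2:32511448-32528933 (GRCm39), with no other annotated gene over it. It had 611, 317.4 and 328.1 CPM in WT 1 to 3 and 274.3, 248.8, 172 and 305.7 CPM in Jag2sm 1 to 4. All Jag2sm libraries were below all WT libraries, but the highest Jag2sm library came close to the lowest WT library. The means were 419 ± 167 CPM (SD, n = 3) and 250 ± 57.1 CPM (SD, n = 4), and the log2 fold change of -0.71 ± 0.29 (SE) had an adjusted p of 0.205 in edgeR. The 3 batches gave -1.15, -0.35 and -0.93. Without WT 1 the log2 fold change was -0.38, and Ak1 was called in none of 17 alternatives.

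Ampd1 encodes the AMP deaminase of skeletal muscle and lies on the plus strand of chr3:102981272-103007037 (GRCm39). It had 10, 12 and 7 counts in WT 1 to 3 and 0, 1, 1 and 0 counts in Jag2sm 1 to 4. On the CPM scale this was 57.6, 7.76 and 6.64 in WT and 0, 0.691, 0.493 and 0 in Jag2sm. The groups did not overlap, also without WT 1. The pooled counts of 29 and 2 gave a log2 ratio of -4.82 (95% interval -7.93 to -2.84). Ampd1 did not reach the main test. Without a filter on low counts it was called lower, with a log2 fold change of -4.96 ± 0.84 (SE) and an adjusted p of 2.7e-07 in edgeR. That fit called 3.1% of its 25189 genes lower. Its adjusted p for Ckmt2 was 1.3e-23, against 0.00652 in the main test. DESeq2 called Ampd1 too. The batches gave -5.12, -1.98 and -1.92, and Gm55445 overlaps Ampd1 on the same strand.

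**Figure D3:**
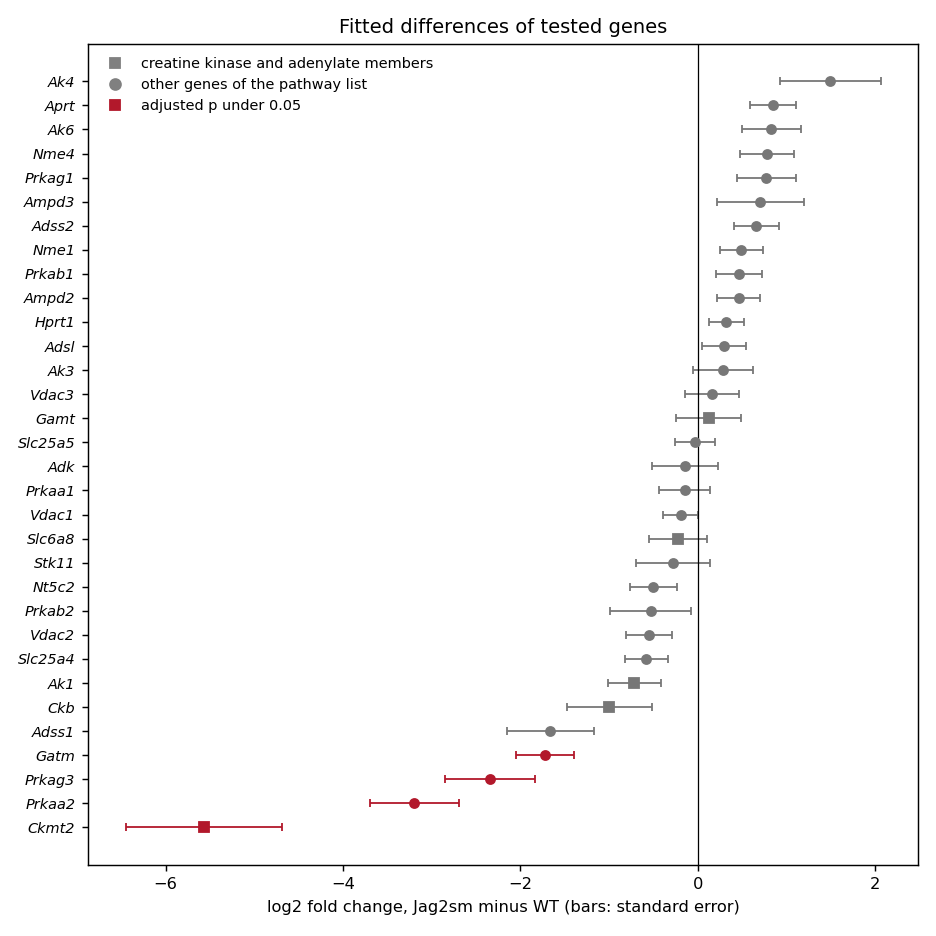
Fitted log2 fold change (Jag2sm minus WT) with its standard error for the tested genes reported here, with squares for the members and circles for the other genes of the pathway list. Red marks an adjusted p under 0.05, reached by Ckmt2, Prkaa2, Prkag3 and Gatm, all of them lower in Jag2sm.

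The wider pathway list held 39 genes, of which 28 were tested, 3 fell (Gatm, Prkaa2 and Prkag3), none rose and 25 did not pass. Of all 9489 tested genes, 4.84% fell and 6.26% passed in either direction. In other fits Aprt was called higher (0.86 with an adjusted p of 0.0163 in DESeq2, 1.01 with 0.0476 in edgeR scaled by library size alone). Ak4 was called higher too (1.49 with 0.00683 in edgeR without a filter on low counts, 1.84 with 0.0131 without Jag2sm 3). So was Nt5e (2.59 with 0.0463 in edgeR without a filter), but 27 of its counts were in Jag2sm 1. It had 2, 0 and 2 counts in Jag2sm 2 to 4 and 2, 0 and 1 in WT 1 to 3. The groups of Ak4 and of Nt5e overlapped, and both genes were named after their values were seen. In the main test the 28 tested genes of the list had a median log2 fold change of 0.22, beside 0.05 for all tested genes. Of the 39 genes, 3 had no count in any library. Groups did not overlap in either direction for 2138 of all tested genes (22.5%), and on the list this held for 6 genes that were lower and for 6 that were higher in Jag2sm.

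Prkaa2 and Prkag3 encode a catalytic and a regulatory subunit of the AMP-activated protein kinase, the sensor of a rising AMP to ATP ratio, in the forms enriched in skeletal muscle. Prkaa2 had 51.9, 20.7 and 24.7 CPM in WT 1 to 3 and 4.24, 4.15, 0.985 and 3.26 CPM in Jag2sm 1 to 4. Its groups were far apart, with a log2 fold change of -3.20 ± 0.50 (SE) and an adjusted p of 0.00615 in edgeR, and it was called in all 15 alternatives that tested it. Prkag3 had 40.4, 58.2 and 63.5 CPM in WT 1 to 3 and 7.07, 8.98, 3.45 and 26.1 CPM in Jag2sm 1 to 4. Jag2sm 4 was the highest of its group. The log2 fold change of Prkag3 was -2.34 ± 0.51 (SE) with an adjusted p of 0.0223 in edgeR, and -3.17 without Jag2sm 4. Its call was lost without WT 2 (adjusted p of 0.0839), WT 3 (0.0940), Jag2sm 1 (0.0536) or Jag2sm 2 (0.0827), and Cyp27a1 overlaps it on the opposite strand. Prkaa1, the catalytic subunit found in most tissues, had a mean of 111 ± 28.9 CPM in WT and 95.1 ± 30.4 CPM in Jag2sm (SD, n = 3 and 4), with an adjusted p of 0.838. The regulatory subunit Prkag1 had a mean of 14.0 ± 5.26 CPM in WT and 26.3 ± 5.74 CPM in Jag2sm (SD, n = 3 and 4), with an adjusted p of 0.222.

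**Figure D4:**
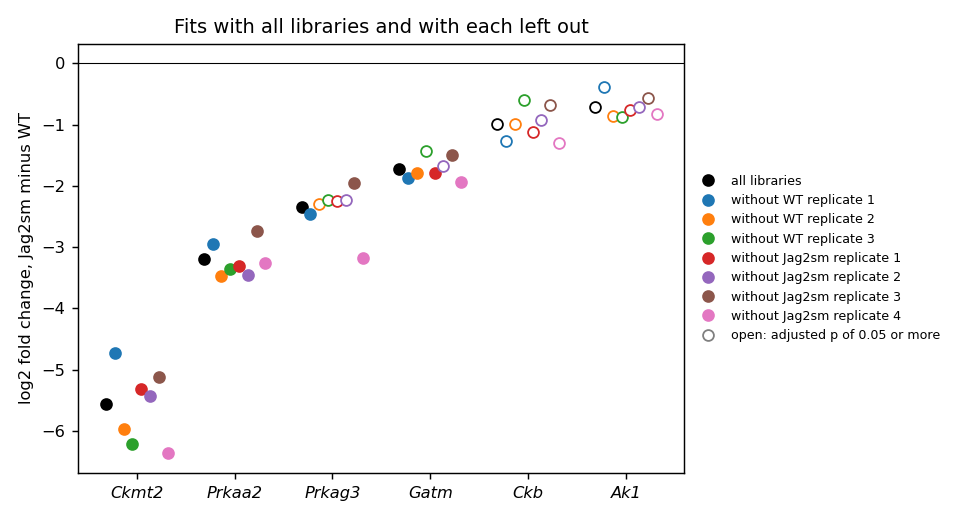
Log2 fold change (Jag2sm minus WT) of 6 genes in edgeR with all libraries and with each library left out in turn. Filled points have an adjusted p under 0.05 and open points do not. Ckmt2 and Prkaa2 stay filled throughout, Prkag3 and Gatm open up without some libraries, and Ckb and Ak1 are open throughout.

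The purine nucleotide cycle turns IMP back into AMP, with Adss1, the muscle form of adenylosuccinate synthase, or Adss2, the form of other tissues, and then Adsl. Adss1 had 46.1, 20.7 and 21.8 CPM in WT 1 to 3 and 14.1, 6.91, 2.96 and 10.6 CPM in Jag2sm 1 to 4. Its groups did not overlap, and the log2 fold change was -1.66 ± 0.49 (SE) with an adjusted p of 0.0756 in edgeR. It was called in limma-voom (-1.83 with an adjusted p of 0.0393), without a filter on low counts (-1.64 with 0.00316) and with the batch as a block (-2.02 with 0.0291). Adss2 was lower in each WT library than in each Jag2sm library, with a log2 fold change of 0.66 and an adjusted p of 0.178. Adsl, the member of this cycle with the highest mean, had 0.29 (adjusted p of 0.574), and Ampd2, the AMP deaminase of most tissues other than muscle, had 0.46 (adjusted p of 0.327).

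Of the remaining named genes of the pathway list none passed the main test. Slc25a4 and Vdac2, a carrier and a pore that pass adenine nucleotides through the inner and the outer mitochondrial membrane, had log2 fold changes of -0.58 (adjusted p of 0.205) and -0.55 (adjusted p of 0.278), with all Jag2sm libraries below WT. Slc25a4 passed in DESeq2 (-0.55 with an adjusted p of 0.0384) and without WT 1 (-0.70 with 0.0300). Ak6, a nuclear adenylate kinase, had 0.83 (adjusted p of 0.197) with all Jag2sm libraries above WT. Aprt, which salvages adenine into AMP, had 0.85 (adjusted p of 0.0878), and Nme4, a mitochondrial nucleoside diphosphate kinase, had 0.78 (adjusted p of 0.181), both with all Jag2sm libraries above WT. Reads of Nme1 and Nme2 share a read-through gene, so these levels are uncertain and are not read here.

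Shares within a library set the counts of a gene beside those of a related gene without any scaling. In 4 of the 5 pairs these were forms of an enzyme or carrier, and in the other they were the successive enzymes Gatm and Gamt. These pairs were formed after the counts had been seen, so the shares are a description with no test. Ampd1 took 62.5%, 17.9% and 18.9% of the counts of Ampd1 plus Ampd2 in WT 1 to 3 and 0%, 1.28%, 1.32% and 0% in Jag2sm 1 to 4. Adss1 took 53.3%, 19.5% and 22.1% of the counts of both synthases in WT and 12.7%, 5.62%, 1.99% and 9.70% in Jag2sm. Prkaa2 took 26.5%, 18.3% and 20.5% of the counts of both catalytic subunits in WT and 5.45%, 3.41%, 1.504% and 2.55% in Jag2sm. In these 3 pairs the other form held most of the counts in every library except WT 1, where the muscle forms of Ampd1 and Adss1 held more, on 16 and 15 counts. Slc25a4 held most of the counts of Slc25a4 plus Slc25a5 throughout, with 77.5%, 75.1% and 77.0% in WT and 67.5%, 69.6%, 67.6% and 70.5% in Jag2sm. Gatm took 86.4%, 74.3% and 85.3% of the counts of both synthesis enzymes in WT and 50.0%, 53.4%, 54.3% and 55.9% in Jag2sm. In none of these 5 pairs did the groups overlap. The first gene of each pair already had all Jag2sm libraries below all WT libraries, so this order is no separate result.

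**Figure D5:**
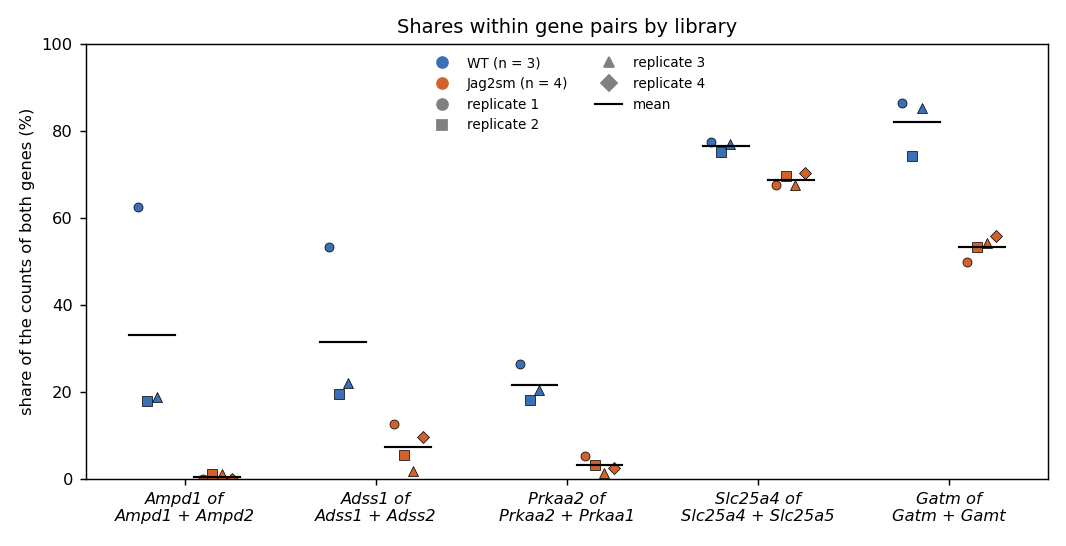
Share of the first gene in the counts of both genes, in percent, for 5 pairs of genes in each library. Blue points are the 3 WT and orange points the 4 Jag2sm libraries, and the black line is the group mean. All WT points lie above all Jag2sm points in each pair, and WT 1 is the highest WT point of each.

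Genes that mark muscle differentiation were lower in Jag2sm, as was Ckmt2. Of 12 genes of differentiating muscle, 11 fell in Jag2sm and all 12 had every Jag2sm library below every WT library, with summed levels of 28604 to 43060 CPM in WT and 1098 to 7592 CPM in Jag2sm. Of 9 genes of the mature fibre, 6 were tested and all 6 fell, with summed levels of 667 to 3142 CPM in WT and 59.1 to 211 CPM in Jag2sm. Over all 9489 tested genes 4.84% fell, and 12.2% had every Jag2sm library below every WT library. Fewer differentiated cells and less RNA per cell cannot be told apart in these bulk libraries, and the part of this in the levels of Ckmt2, Ampd1, Prkaa2 and Gatm was not tested. Of 7 myogenic genes, 1 fell (Des), none rose and 4 had a negative log2 fold change. Pax7, which marks MuSCs, was present in both groups, at mean levels of 68.4 CPM in WT and 132 CPM in Jag2sm (adjusted p of 0.174 in edgeR).

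Markers of endothelial, immune and fibro-adipogenic cells, which the selection was to remove, were low. The 6 endothelial genes summed to 2.59 to 11.5 CPM in WT and 2.45 to 14.1 CPM in Jag2sm, with Kdr and Tie1 at 0 in all libraries. Pecam1, the gene of CD31, had 0 to 1.29 CPM in WT and 1.41 to 4.84 CPM in Jag2sm. This rested on 2 and 16 counts, too few for the main test. The 6 immune genes summed to 0 to 5.69 CPM in WT and 0.985 to 4.08 CPM in Jag2sm, with Ptprc, Adgre1 and Cd3e at 0. The 6 fibro-adipogenic genes summed to 0 to 16.1 CPM in WT and 6.41 to 44.9 CPM in Jag2sm, with Dpt and Lum at 0. Among them Ly6a, the gene of Sca1, had 0 to 2.59 CPM in WT and 2.45 to 19.3 CPM in Jag2sm. The 6 mural genes spread more, from 59.7 to 80.7 CPM in WT and from 65.5 to 687 CPM in Jag2sm. The highest sum was that of Jag2sm 1, where Rgs5 had 645 CPM, beside 25.3 to 40.4 CPM in the other Jag2sm libraries and 11.5 to 14.2 CPM in WT (adjusted p of 0.135 in edgeR). Abcc9 of the same list fell, with a log2 fold change of -3.71 and an adjusted p of 0.0139, and Cspg4, which was not tested, had means of 15.9 CPM in WT and 3.45 CPM in Jag2sm. The 6 glial genes summed to 320 to 403 CPM in WT and 241 to 393 CPM in Jag2sm, nearly all of it from Ncam1, which myoblasts also express, with Gfap at 0. The 5 tenocyte genes summed to 115 to 128 CPM in WT and 30.1 to 76.6 CPM in Jag2sm, led by Scx. Scx, the 1 tested gene of this list, fell, with a log2 fold change of -1.34 and an adjusted p of 0.0223 in edgeR. The part of the mural and tenocyte genes in the results was not tested.

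The tested genes whose log2 CPM followed Ckm most closely over the 7 libraries were Klf9 (Pearson r = 0.994), Mapt (0.987), Dag1 (0.986), Mapre3 (0.983) and Ndufaf1 (0.982). For Ckb they were Ndufv2 (0.984), Rps3a3 (0.982), Snai1 (0.970), Naa30 (0.970) and Mrpl57 (0.969). Both lists are descriptions chosen from 9489 genes, the 7 points share the depth of their libraries, and the first list rests on the 14 counts of Ckm. No gene was in both lists.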

How the data were processed

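RNA of cultured MuSCs was measured in 3 WT and 4 Jag2sm libraries. The authors prepared direct cDNA libraries for Oxford Nanopore sequencing, used dorado for base calling, minimap2 2.17 for alignment (build GRCm39) and HTSeq for read counts per gene, as the paper's methods and the submitters' processing notes say. The annotation release and the strand setting are not given in the sources used here. Each deposited file holds raw counts for 56748 genes and 5 summary rows, which stayed out of the tests. A further table with the authors' own DESeq2 comparison (means, fold changes and p-values) was not used.

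Symbols and positions came from GENCODE M39 (56017 identifiers matched, with all 111 list genes found), and promoters from the RefSeq table of GRCm38.p6. The main test was edgeR 4.0.16 (R 4.3.3, TMM, filterByExpr with a minimum count of 10 and a total of 15, quasi-likelihood fit on genotype) with Benjamini-Hochberg adjustment over all 9489 genes tested. The model fits were tested on simulated data. Depth was 187834 to 1937581 reads per library, so 3 counts were worth 1.48 to 17.3 CPM. For the log2 CPM of single genes an exact 2-sided permutation test over 35 splits was used. Its smallest p is 0.0286. For the share and the ratio of Ckm to Ckb the smaller tail was doubled, so the smallest possible p is larger. The p-values of the 2 forms are therefore not comparable. Pooled ratios and shares carry 95% exact intervals (SciPy 1.17.1). The members and gene lists were chosen with earlier results of these data known. Named were all members, Jag2, listed genes that were called or whose groups did not overlap, the gene of highest mean in each sublist, and the 5 genes most like Ckm and the 5 most like Ckb. Prkaa1 and the other leading genes of sublists entered by this rule. A gene of the pathway list that this rule names is not reported here, and it is counted in the totals of the list only.

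The labels give each library a batch number equal to its replicate number, which pairs WT and Jag2sm 1 to 3 and leaves Jag2sm 4 alone. What a batch stands for is not given in the sources used here. By the paper's methods the barcoded samples were pooled before sequencing. The deviations from the group means correlated at 0.0740, 0.0144 and 0.0539 in the 3 pairs, over 9489 genes. Alternatives were DESeq2 1.42.0, limma-voom (limma 3.58.1), other scalings and filters, a robust fit, the batch as a block, binomial thinning to the smallest library, mitochondrial genes left out and each library left out. A first thinning routine was replaced after its output was seen, because its counts per gene did not keep in proportion to the library.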

Additional observations from a re-analysis of the deposited data

Results flagged for a closer look

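Single libraries far from the others of their group were sought among the 4 Jag2sm libraries, over 30 measures, where chance marks about 1 in 20. Ckmt1 had 0.815 CPM in Jag2sm 4, a single count, and none in the other Jag2sm libraries. A gene with counts in only 1 of the 4 libraries is always marked by this rule. The rate of 1 in 20 thus does not apply to Ckmt1, and its mark shows no more than that count. Aprt was highest in Jag2sm 1, at 594 CPM, beside 472 to 490 CPM in the other 3. Vdac2 was lowest in Jag2sm 3, at 195 CPM, beside 361 to 384 CPM in the other 3.

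The rows of unaligned reads, which entered no test, were far above the WT level in 3 Jag2sm libraries. Reads not aligned were 50.8% in Jag2sm 1, 46.7% in Jag2sm 2 and 46.0% in Jag2sm 4, against 2.44% to 3.24% in WT and 3.07% in Jag2sm 3. In Jag2sm 3 Ckmt2 and Ampd1 had 0.493 CPM each, from 1 count, below the 1.48 CPM that 3 counts were worth there. Ckb was lowest in that library, at 17.7 CPM. The part of the unaligned reads in these levels was not tested.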

How the results depend on the processing

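The number of genes called, 594, was 1248 without a filter on low counts, 274 with at least 10 counts in every library and 248 after thinning to the smallest library. With 1 library left out it ran from 251 (without Jag2sm 2) to 616, with 343 without WT 2 and 341 without WT 3. Members called, 1 in the main test, were 2 in DESeq2 (Ampd1 and Ckmt2), 3 without a filter (Ampd1, Ckb and Ckmt2) and 0 both with at least 10 counts in every library and after thinning, since Ckmt2 was then not tested. With 1 library left out it was 1 throughout. Pathway genes called, 3 in the main test, were 5 in DESeq2 (Aprt and Slc25a4 in addition), 6 without a filter (Adss1, Ak4 and Nt5e in addition), 1 (Gatm) with at least 10 counts in every library and 1 (Gatm) after thinning, and ran from 1 to 4 with 1 library left out (1, Prkaa2, without WT 3 or without Jag2sm 2). The only log2 fold changes of the members that turned sign were those of Gamt, at -0.050 in limma-voom, -0.12 with the replicate block, -0.040 without WT 1, -0.035 without Jag2sm 1 and -0.017 without Jag2sm 4, each with an adjusted p of 0.912 or above. With 1 library left out Gamt ran from -0.040 to 0.45. The cause of these changes was not tested. With the batch as a replicate block, Ckmt2 stood at -6.20 (adjusted p of 0.000987), the calls among the members were as before, Adss1 was called in addition on the pathway list, and 565 genes were called in all. For the share of Ckm the block gave -10.9 points (exact sign-flip p = 0.25, the smallest that 3 pairs allow). Ckm, Ckmt1 and Ampd1 had too few counts to reach the main test. The levels per coding kilobase without WT 1 were added after the data were seen.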
